A study of Mus musculus with 8 samples.

Results

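The genes described here are the Wnt ligands, their receptors and the proteins that modulate them, in mouse muscle stem cells. They are defined by a rule on gene symbols and comprise Wnt ligands, Frizzled receptors, the co-receptors Lrp5, Lrp6, Ror1 and Ror2, Sfrp and Dkk inhibitors, R-spondins with their Lgr receptors, the ligases Rnf43 and Znrf3, Axin1, Axin2, beta-catenin (Ctnnb1) and the TCF/LEF factors. The rule took 57 of the 27554 genes in the count table and uses no measured value, although this group of genes was picked with earlier results of these data known. Libraries of polyA RNA were made from Pax7-positive cells sorted from hindlimb muscle by the brightness of a Myf5 reporter. There were 4 groups of 2 libraries, female Myf5High, female Myf5Low, male Myf5High and male Myf5Low, and each library came from a pool of 4 mice. Every mouse was of C57BL/6NTac background with 2 reporter alleles, Pax7tm3955(T2A-ZsGreen)Tac and, at the second locus, Myf5tm3956(T2A-E2Crimson)Tac, so all 4 groups carried green fluorescence at Pax7 and far-red fluorescence at Myf5. The Myf5High and Myf5Low cells lay at the 2 ends of the E2Crimson range, cells between them are not represented, no group lacked the reporters, and the ages of the mice are not given in the labels.

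Wnt proteins are secreted lipid-modified ligands that bind Frizzled receptors on the same or neighbouring cells. With Lrp5 or Lrp6 as co-receptor, they stop the destruction complex built on Axin from degrading beta-catenin, which then acts with TCF/LEF factors on target genes, whereas Ror receptors carry signals that do not pass through beta-catenin. In skeletal muscle, Wnt signals are known for roles in the self-renewal, quiescence and differentiation of muscle stem cells, and Wnt4 and Wnt9a are among the ligands studied in this tissue.

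The libraries held between 3140361 and 4238427 reads in genes. Levels are given as normalised CPM. Each count was divided by its library's total over the genes that were tested and by a TMM factor for library composition. On this scale 3 reads, the limit for a gene with no reads, corresponded to between 0.672 and 0.986 CPM. Pax7 stood between 1000 and 1500 CPM in every library, and Myf5, the gene behind the sort, was at 128, 116, 73.7 and 39.5 CPM in the Myf5High libraries and at 25.0, 49.9, 41.9 and 28.7 CPM in the Myf5Low libraries, so that 1 male Myf5High library lay within the Myf5Low range. A single gene, Gm42418, took between 20.1% and 28.8% of the gene counts. Summed markers of fibro-adipogenic progenitors, the stromal cells of muscle, ranged from 714 to 1580 CPM in Myf5High and from 466 to 703 CPM in Myf5Low, with the defining marker Pdgfra between 0 and 4.33 CPM. Summed endothelial markers ranged from 257 to 434 CPM in females and from 465 to 801 CPM in males.

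The promoters of 2 genes are shown first because Wnt4 and the co-receptor gene Ror2 had the lowest p-values of the members between the fractions. Wnt4 lies on chr4:137277489-137299726 on the plus strand and Ror2 on chr13:53109312-53286124 on the minus strand of GRCm38. The sequences are from RefSeq (GRCm38.p6), 5′ to 3′ on the strand of the gene, and the upstream runs end at the base before the first annotated start (RefSeq or GENCODE M21). Capitals mark an E-box, CANNTG, the core to which Myf5, MyoD and other basic helix-loop-helix factors bind. The first sequence is chr4:137277385-137277488, the second chr4:137277608-137277637, a site 3′ of the GENCODE start of Wnt4, and the third chr13:53286125-53286374.
Wnt4 upstream: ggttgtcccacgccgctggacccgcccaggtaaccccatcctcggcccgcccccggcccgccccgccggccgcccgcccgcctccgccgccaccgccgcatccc
Wnt4 E-box site: ccgcgcggcgccCACCTGccgccccgacgg
Ror2 upstream: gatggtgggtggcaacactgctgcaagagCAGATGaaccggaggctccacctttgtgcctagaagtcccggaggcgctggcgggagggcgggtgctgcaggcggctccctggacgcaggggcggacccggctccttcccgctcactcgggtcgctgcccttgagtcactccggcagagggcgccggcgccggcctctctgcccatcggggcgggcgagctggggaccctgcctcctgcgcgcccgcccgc

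The 104 bases shown upstream of Wnt4 held no E-box, and the RefSeq window of 300 bases, 250 before and 50 after its start, held 1, CACCTG. The window of Ror2 held 1 E-box, CAGATG, and that of Wnt9a on chr11 held 2, CACGTG and CAGCTG. RefSeq windows matched 38 of the 57 members, and 24 of these 38 held an E-box on either strand. Counted by window, E-boxes were in 60.4% of 48 member windows and in 72.3% of all 32851 windows of the same length. The letters CTTTG followed by AA, AT, TA or TT, forms of the TCF/LEF motif searched on both strands, were in 14.6% of member windows and in 16.9% of all windows, and neither Wnt4, Ror2 nor Wnt9a held one. These matches describe letters in the windows and say nothing of binding.

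Receptors and the intracellular machinery were detected far more completely than the ligands. All 10 Frizzled genes, all 4 co-receptors and all 3 genes of the Axin and beta-catenin class had more than 3 reads in at least 2 libraries, the criterion used for detection. By the same criterion, 6 of 19 ligands, 4 of 8 secreted inhibitors, 3 of 4 TCF/LEF factors, 3 of 7 R-spondin and Lgr genes and 1 of 2 ligases were detected, 34 members in all. No read was counted in any library for 11 members, the ligands Wnt3, Wnt3a, Wnt7a, Wnt7b, Wnt8b, Wnt9b, Wnt10b and Wnt16, the R-spondin Rspo4 and the inhibitors Dkk1 and Dkk4. A further 12 had reads but did not meet the criterion, namely Wnt1, Wnt2, Wnt2b, Wnt8a, Wnt11, Rspo2, Rspo3, Lgr6, Lef1, Dkk3, Sfrp2 and Rnf43. A library with 0 reads of a gene allows a level of up to the 3 reads given above, so 0 reads do not show that a gene was absent. Of the 34 detected members, 28 passed the filter on low counts and were tested, while Fzd6, Fzd10, Lgr5, Tcf7, Wnt6 and Wnt10a did not pass. Passing depended on reads in at least 2 libraries, so counts over the 28 do not describe all 57 members.

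**Figure D1:**
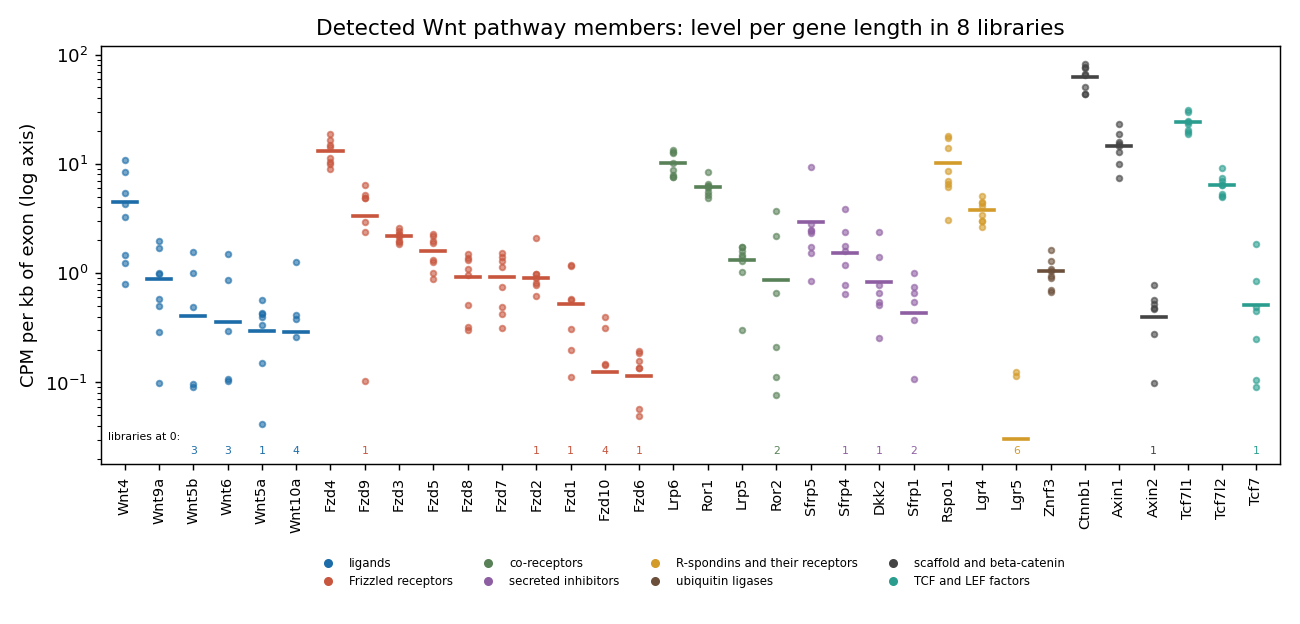
Level of each detected member per kilobase of exon (CPM per kb, logarithmic axis), by role, with 1 point per library, a bar at the mean of the 8 libraries and, at the foot, the number of libraries at 0. Ctnnb1 stands highest with a mean of 62.8 CPM per kb, and the ligands other than Wnt4 have means under 1.

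Levels of different genes are compared here as CPM per kilobase of exon (GENCODE M21 exon lengths), as means ± SD over the 8 libraries. Among the ligands, Wnt4 stood at 4.46 ± 3.60 CPM per kb and Wnt9a, the next, at 0.891 ± 0.662. Wnt4 was above Wnt9a in 7 of 8 libraries and their ranges overlapped. Wnt5b, Wnt6, Wnt5a and Wnt10a followed at 0.405, 0.360, 0.293 and 0.290 CPM per kb, and neighbours in this order were not separated by their spread.

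Fzd4 was the highest Frizzled receptor gene, at 13.1 ± 3.49 CPM per kb, above Fzd9 (3.35 ± 2.39) in 8 of 8 libraries with no overlap of ranges. Below Fzd9 came Fzd3 at 2.18 and Fzd5 at 1.60 CPM per kb, then Fzd8, Fzd7 and Fzd2 between 0.899 and 0.920, with Fzd1 at 0.518 and Fzd10 and Fzd6 lowest, and all these neighbours overlapped. Among co-receptors, Lrp6 (10.1 ± 2.51) and Ror1 (6.14 ± 1.08) overlapped, and Ror1 was above Lrp5 (1.32 ± 0.474) in every library. Ror2 averaged 0.864 ± 1.35 CPM per kb, an SD above its mean.

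Rspo1, the secreted agonist that binds Lgr receptors and keeps Frizzleds at the surface, was at 10.1 ± 5.55 CPM per kb, and it was the only R-spondin detected. Its receptor Lgr4 was at 3.76 ± 0.868 and above Lgr5 (0.0301 ± 0.0558) in 8 of 8 libraries. Znrf3, a ligase that removes Frizzleds from the surface, was at 1.04 CPM per kb, whereas its relative Rnf43 had a single read in 1 library. Among the secreted inhibitors, which bind Wnts (Sfrp) or block Lrp5 and Lrp6 (Dkk), the order was Sfrp5 (2.95), Sfrp4 (1.52), Dkk2 (0.824) and Sfrp1 (0.430 CPM per kb), with overlapping ranges.

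Ctnnb1, which encodes beta-catenin, stood at 62.8 CPM per kb, above the scaffold gene Axin1 at 14.7 and its relative Axin2, a widely used target gene of the pathway, at 0.400, with no overlap between these 3 ranges. Of the nuclear factors, Tcf7l1 (24.0 ± 4.50), often a repressor, was above Tcf7l2 (6.47 ± 1.38), and Tcf7l2 above Tcf7 (0.511 ± 0.605), each in 8 of 8 libraries with ranges apart. Lef1 did not meet the detection criterion. For Ctnnb1 and Fzd5, 15.1% and 17.8% of exon bases lay under another annotated gene, and whether strand was used in counting is not given in the sources used here, so reads in those bases cannot be assigned with certainty. Wnt4, Ror2, Lrp6, Rspo1, Axin1 and Wnt9a shared no exon bases.

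The comparison of Myf5High with Myf5Low asked how the 2 ends of the reporter range differ. Wnt4 was the one member called by the edgeR fit of all 8 libraries, with higher values in Myf5High in both sexes, and some alternatives also called Ror2, as given with its values. It was at 45.3 and 35.1 CPM in the female Myf5High libraries and at 22.8 and 18.1 CPM in the male ones. In Myf5Low it was at 5.22 and 13.6 CPM in females and at 3.36 and 6.21 CPM in males. All 4 Myf5High libraries lay above all 4 Myf5Low libraries, and within each fraction the female mean was above the male mean. The mean over Myf5High was 30.3 ± 12.3 CPM, against 7.11 ± 4.51 CPM over Myf5Low (SD, n = 4). The difference was 2.09 on the log2 scale (SE 0.367), with an edgeR adjusted p of 0.00523, and Myf5High was the higher library in 4 of 4 pools. Without replicate 1 of female Myf5High the log2 fold change was 1.98 and the call was lost (edgeR adjusted p = 0.0501). In bulk RNA, fewer cells that express a gene and less of its RNA per cell cannot be told apart.

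Across the table, 1.2% of the 11730 tested genes were called in this comparison (adjusted p below 0.05), with 0.767% above and 0.435% below their Myf5Low level, and 1.16% with the pool as a block. Among members, 1 of 28 was called, Wnt4, and 4 had an unadjusted p under 0.05, against 9.36% of all tested genes. Ror2, among these 4, passed the filter on low counts only through Myf5High libraries. The median log2 fold change of the 28 was 0.12, with 17 positive and 11 negative, beside a median of -0.02 over all tested genes. With 1 library left out the members' median ran from 0.06, without male Myf5High replicate 2, to 0.30, without male Myf5Low replicate 2, and the genes called over the whole table from 67 to 205, against 141. The 4 Myf5High libraries did not overlap the 4 Myf5Low libraries for 2 members, Wnt4 and Fzd8 (7.14% of the 28, against 4.58% of all tested genes). The summed fibro-adipogenic markers given above were also without overlap between the fractions, 5 of the 7 tested were higher in Myf5High and Dpt was the one called (log2 fold change 1.05, edgeR adjusted p = 0.00327). Markers of 4 other cell types were mostly lower in Myf5High, with overlapping sums. Lower values in Myf5High were found for 7 of 8 endothelial markers (5 of the 8 with an unadjusted p under 0.05 by edgeR and none called, although with the pool as a block the one higher marker, Tek, was called at a log2 fold change of 1.02 and an adjusted p of 0.0288), 7 of 8 mural markers (Acta2 called, log2 fold change -1.73, edgeR adjusted p = 0.000389), 5 of 6 tested immune markers (C1qa called, -2.13, edgeR adjusted p = 0.00771) and all 7 tested glial markers (none called by edgeR, 1 with an unadjusted p under 0.05). Of 5 tested tendon markers 2 were higher and 3 lower, none called by edgeR and 1 with an unadjusted p under 0.05. Of 10 committed muscle markers 8 were lower and 2 higher in Myf5High (median log2 fold change -1.03). In females 9 were lower and 1 higher (median -2.17), and in males 5 were lower and 5 higher (median 0.03). Their sum ranged from 127 to 1030 CPM in Myf5High and from 417 to 1090 CPM in Myf5Low, and 2 were called lower, Myog (log2 fold change -8.42, edgeR adjusted p = 2.24e-08) and Mymk (-9.16, adjusted p = 0.000108). The pool block also called Myod1 lower (-1.01, edgeR adjusted p = 0.0486, against 0.103 without the block). Of 10 muscle stem cell markers 3 were called higher in Myf5High, Myf5, Calcr and Chrdl2, the first being the gene of the sort, and the call of Calcr was lost with the block (edgeR adjusted p = 0.0711, against 0.0389). The part of other cells or of commitment in the Wnt4 result was not tested.

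**Figure D2:**
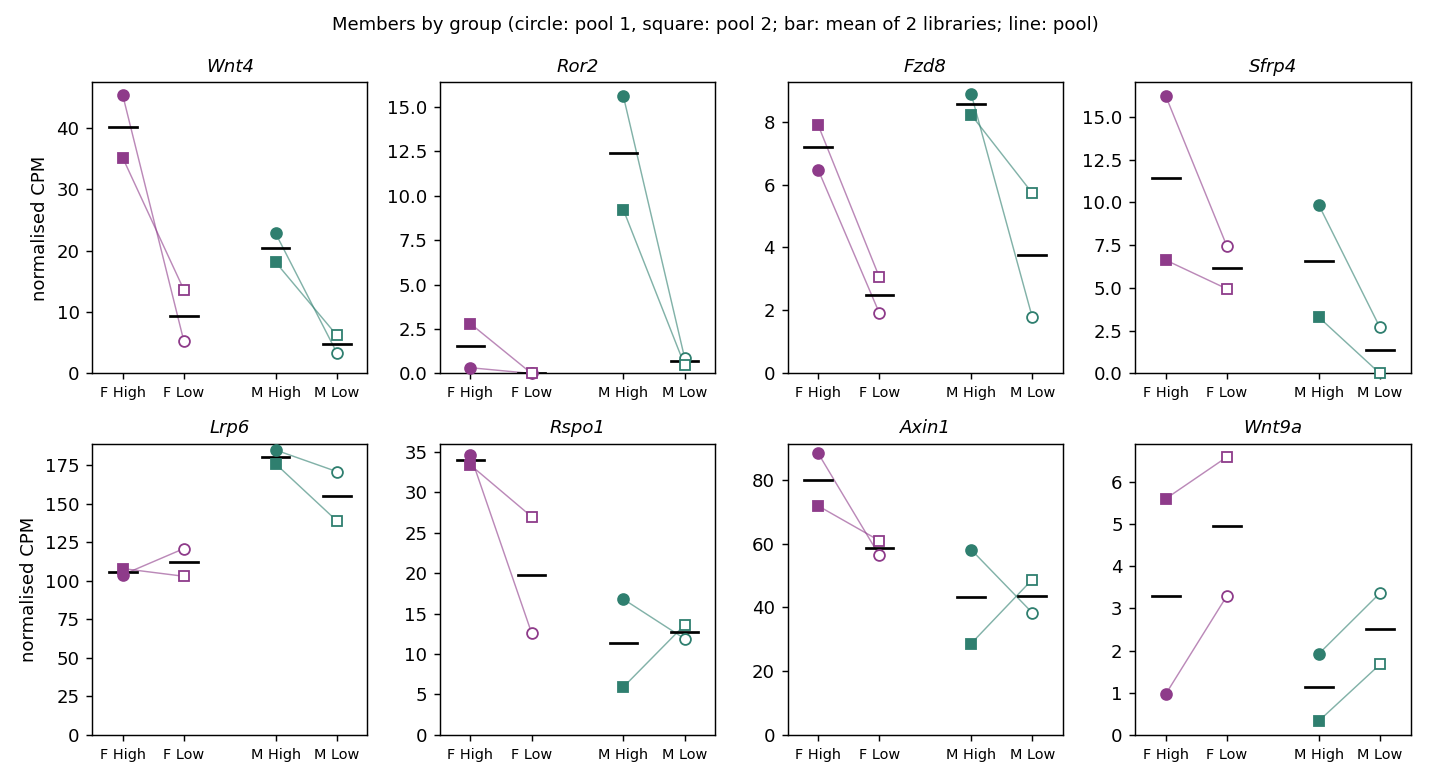
Normalised CPM of 8 members in the 4 groups, 1 point per library, with lines joining the Myf5High and Myf5Low libraries of the same pool label. Wnt4 lies between 18.1 and 45.3 CPM in Myf5High and between 3.36 and 13.6 CPM in Myf5Low, and Lrp6 is higher in all 4 male libraries.

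Ror2, a tyrosine kinase receptor best known as a Wnt5a receptor, had few reads outside 2 libraries. Its level was 15.6 and 9.21 CPM in the male Myf5High libraries and 0.323 and 2.80 CPM in the female ones. In Myf5Low it was 0.896 and 0.478 CPM in males, from 4 and 2 reads, and 0 in both female libraries. The male Myf5High libraries therefore stood above the other 6, and the lowest Myf5High value lay within the Myf5Low range. Ror2 reached the limit of the filter on low counts, 10 reads at the median library size, only in Myf5High libraries, the fraction in which it was higher. Its fitted value, pool signs and calls are therefore given as description only. The fitted log2 fold change, which rests on those few Myf5Low reads, was 4.88 (SE 1.20, edgeR adjusted p = 0.0619), higher in 4 of 4 pools and not called. It was called without the filter on low counts (adjusted p = 0.00415), in the additive edgeR model (adjusted p = 0.0406) and by DESeq2 (adjusted p = 0.0035), where 291, 149 and 234 of all genes were called, against 141 in the fit reported.

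Fzd8, a Frizzled receptor gene, was at 6.47, 7.89, 8.89 and 8.22 CPM in the Myf5High libraries and at 1.92, 3.06, 1.79 and 5.73 CPM in the Myf5Low libraries, in the order female pools 1 and 2, male pools 1 and 2. The 2 sets did not overlap and the level was higher in Myf5High in 4 of 4 pools, from 7 to 37 reads per library. On the log2 scale the difference was 1.35 (SE 0.619, unadjusted p = 0.0432), which edgeR did not call (adjusted p = 0.504). Sfrp4, a secreted Wnt antagonist, was at 16.2, 6.62, 9.85 and 3.29 CPM in Myf5High and at 7.42, 4.94, 2.69 and 0 CPM in Myf5Low in the same order. The level was higher in Myf5High in each pool but the fractions overlapped, and a log2 difference of 1.57 (SE 0.725) was not called by edgeR (adjusted p = 0.511). Without male Myf5Low replicate 1, which left the library at 0 as the only one of its group, the value was 4.26, and it was 1.06 without male Myf5High replicate 1.

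Wnt9a was lower in Myf5High in 4 of 4 pools, but 2 of the 8 libraries held 3 reads or fewer of it. In females it was at 0.970 and 5.60 CPM in the Myf5High libraries against 3.30 and 6.59 CPM in the Myf5Low libraries. In males the corresponding levels were 1.92 and 0.329 CPM against 3.36 and 1.67 CPM. The 2 fractions overlapped, with means of 2.21 ± 2.36 and 3.73 ± 2.06 CPM (SD, n = 4). The edgeR log2 difference was -0.83 (SE 0.935) and not called, with an adjusted p of 0.902. It ranged from -1.71 without female Myf5High replicate 2 to -0.47 without female Myf5High replicate 1, and it moved by over 1.5 times also without either male Myf5High library (-1.69 and -0.48), female Myf5Low replicate 2 (-0.54) or male Myf5Low replicate 1 (-0.55). Of the other tested ligands, Wnt5a ranged from 0 to 3.36 CPM in Myf5High and from 1.18 to 4.40 CPM in Myf5Low, with a log2 fold change of -2.03 that edgeR did not call (adjusted p = 0.65) and that was -3.29 without female Myf5High replicate 1. Wnt5b ranged from 0 to 1.29 CPM in Myf5High and from 0 to 4.12 CPM in Myf5Low, and was not called either (edgeR adjusted p = 0.636). Wnt5b passed the filter on low counts only through Myf5Low libraries, and Wnt9a and Wnt5a would not have passed on their Myf5High libraries alone.

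The secreted inhibitors Dkk2 and Sfrp5 also had one sign in all 4 pools without a call. Dkk2 was at 2.91, 2.04, 8.89 and 5.26 CPM in Myf5High and at 0, 0.941, 2.46 and 1.91 CPM in Myf5Low, pool by pool as above (log2 fold change 1.97, edgeR adjusted p = 0.556). Without female Myf5Low replicate 2, which left a library at 0 alone in its group, the value was 3.96. Sfrp5 had the opposite sign, at 1.62, 3.31, 2.88 and 4.60 CPM in Myf5High and 4.40, 5.41, 4.70 and 17.9 CPM in Myf5Low, and the fractions overlapped only by the male Myf5High library at 4.60 CPM (log2 fold change -1.28, edgeR adjusted p = 0.562). Without male Myf5Low replicate 2, the library at 17.9 CPM, the value was -0.65. In all, 8 of 28 members kept one sign in the 4 pools (28.6%, against 16.3% of all tested genes). Ror2, among these 8, passed the filter on low counts only through Myf5High libraries. Dkk2 and Wnt9a, also among the 8, would not have passed on the fraction in which they were lower. Dkk2 had 0, 4, 11 and 8 reads in Myf5Low, and Wnt9a had 3, 22, 8 and 1 in Myf5High. The share of members with one sign is therefore given as description only.

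A further 8 members, each among the 2 highest of its role per kilobase, were not called between the fractions. Ctnnb1 was at 403, 343, 389 and 226 CPM in Myf5High and 263, 424, 225 and 335 CPM in Myf5Low, which overlapped widely (log2 fold change 0.13, SE 0.217, edgeR adjusted p = 0.944). With 1 library left out the value ran from -0.10, without male Myf5High replicate 1, to 0.32, without female Myf5Low replicate 2, so it has no settled sign. For the following members the order is female pools 1 and 2, then male pools 1 and 2. Tcf7l1 was at 117, 121, 97.7 and 76.6 CPM in Myf5High and at 90.9, 79.7, 74.1 and 95.6 CPM in Myf5Low. Tcf7l2 was at 56.3, 43.5, 65.1 and 47.0 CPM against 79.7, 44.9, 56.5 and 61.2 CPM. Both factors overlapped between fractions, with the 2 highest Tcf7l1 values in female Myf5High. Fzd4 was at 75.7, 67.2, 110 and 127 CPM in Myf5High and at 99.4, 69.9, 60.3 and 95.6 CPM in Myf5Low, higher in both male pools and lower in both female pools. For Ror1 the levels were 48.5, 31.8, 28.3 and 36.2 CPM against 29.9, 37.4, 36.1 and 34.6 CPM, with overlapping fractions. Lgr4 stood at 29.8, 26.0, 20.2 and 24.3 CPM against 26.1, 15.5, 17.5 and 17.7 CPM, and 1 female Myf5Low library reached into the Myf5High range. Znrf3 stood at 10.3, 7.13, 5.28 and 8.55 CPM against 8.24, 12.9, 7.39 and 5.50 CPM, with overlapping fractions. The edgeR log2 fold changes of these 6 genes lay between -0.19 and 0.38 between the fractions (SEs from 0.194 to 0.468, adjusted p from 0.803 to 0.986) and between -0.30 and 0.53 for female against male (adjusted p from 0.562 to 0.963). With 1 library left out, each of the 6 values moved by over 1.5 times in both comparisons. The fraction values stayed within -0.37 (Tcf7l2, without female Myf5Low replicate 2) and 0.59 (Lgr4, without female Myf5Low replicate 1). The sign turned for Tcf7l2, Ror1 and Znrf3 between the fractions and for Tcf7l2 and Ror1 between the sexes, and none of the 6 was called in any of these fits. Fzd9 was uneven within groups, where the 2 female Myf5High libraries were at 0 and 11.2 CPM and the 2 female Myf5Low libraries at 5.49 and 0.235 CPM. The male libraries were closer together, at 14.6 and 11.8 CPM in the Myf5High and 6.72 and 11.2 CPM in the Myf5Low libraries, and edgeR called neither the fraction (log2 fold change 0.79, adjusted p = 0.882) nor the sex difference (-1.44, adjusted p = 0.451). Both values hung on single female libraries: without female Myf5High replicate 2 they were -2.94 and -5.17, and without female Myf5Low replicate 1 the fraction value was 2.50.

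**Figure D3:**
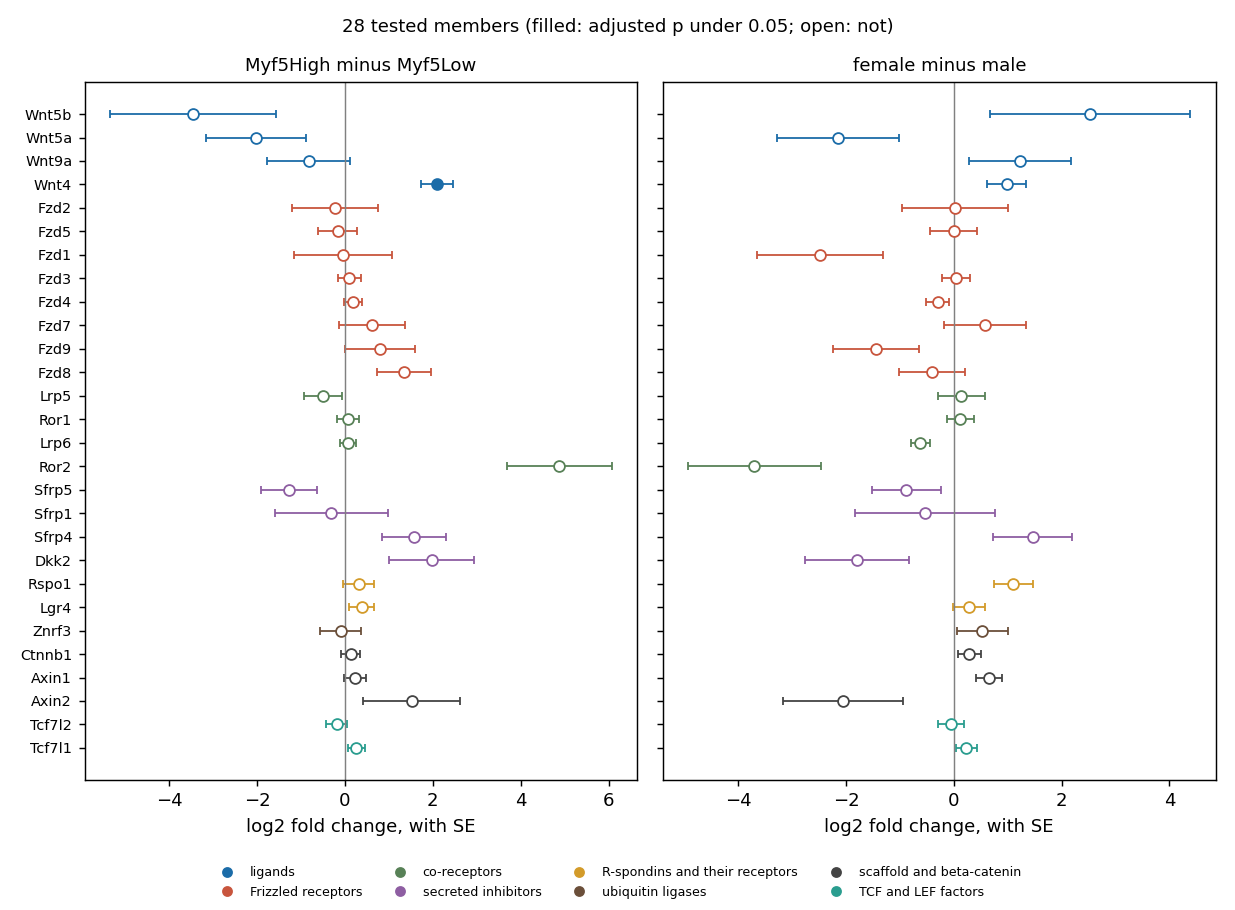
Log2 fold changes of the 28 tested members with their standard errors, for Myf5High against Myf5Low and for female against male (edgeR). Wnt4 at 2.09 is the one member called in the first comparison, and none is called in the second.

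Within each sex, the comparison of the fractions had 2 libraries against 2. In females 0.332% of all tested genes were called and in males 0.171%, and no member was called in either sex by the edgeR fit of all 8 libraries (3 of 28 members had an unadjusted p under 0.05 in females and 2 in males, beside 863 and 782 of the 11730 genes). With 1 library left out the genes called over the whole table ran in females from 8, without female Myf5Low replicate 2, to 101, without male Myf5High replicate 2, against 39. In males they ran from 7, without male Myf5Low replicate 1, to 55, without male Myf5High replicate 2, against 20. DESeq2 called 1 member in females, Wnt4, among 107 genes in all, and in males 0 members among 72 genes. Other edgeR fits also called Wnt4, in females without the filter on low counts (adjusted p = 0.00958) and with only the female libraries (0.0235), and in males without the filter (0.0193), where 167, 120 and 111 of all genes were called. For Wnt4 the means were 40.2 ± 7.17 against 9.43 ± 5.96 CPM in females and 20.4 ± 3.35 against 4.79 ± 2.02 CPM in males (SD, n = 2). Its log2 fold change was 2.08 in females (SE 0.508, edgeR adjusted p = 0.105) and 2.09 in males (SE 0.530, edgeR adjusted p = 0.173). The female minus the male fold change was -0.02 (SE 0.592, edgeR adjusted p = 1). With 1 library left out it ran from -0.54, without female Myf5Low replicate 1, to 0.82, without female Myf5Low replicate 2, so these data do not show that the fold was equal in the sexes. This interaction of sex and fraction called 0% of all tested genes (533 genes had an unadjusted p under 0.05 by edgeR), and for members the count was 0 by both measures in edgeR and 0 called by DESeq2.

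Females and males were compared over both fractions. In this comparison 1.65% of all tested genes were called, 0.733% higher and 0.921% lower in females, and no member was called by edgeR. DESeq2 called 1 member, Lrp6, among 371 genes in all, against 194 by edgeR. By edgeR 6 of 28 members had an unadjusted p under 0.05 (all tested genes, 13.9%), Lrp6, Rspo1, Ror2, Wnt4, Axin1 and Fzd1. The members' median log2 fold change was 0.03, beside -0.02 over all genes. It had no settled sign, at -0.14 without female Myf5Low replicate 1 and 0.12 without male Myf5Low replicate 2, and with 1 library left out the genes called over the whole table ran from 69 to 501, against 194. The sexes did not overlap for 3 members, Lrp6, Fzd1 and Axin2 (10.7%, against 7.08% of all tested genes). Fzd1 and Axin2 reached the limit of the filter on low counts only in male libraries, the sex in which they were higher. Ror2, with 1, 11, 0 and 0 reads in the female libraries, would not have passed on these alone. The lack of overlap of Fzd1 and Axin2, and the place of Fzd1 and Ror2 among the 6, are therefore given as description only. The labels pair the fractions by number without stating outright that they share mice. If they do, the 4 libraries of a sex stand for 2 pools.

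Lrp6, the co-receptor for beta-catenin signalling, was at 104, 108, 121 and 103 CPM in the female libraries and at 185, 176, 171 and 139 CPM in the male ones. Every male library lay above every female library. The means were 109 ± 8.24 and 167 ± 20.1 CPM (SD, n = 4), with a log2 fold change of -0.62 for female against male (SE 0.180, edgeR adjusted p = 0.102). DESeq2 gave -0.63 with an adjusted p of 0.0254. The summed endothelial markers were likewise higher in every male library, 7 of the 8 were lower in females and 1 of them was called. All 7 tested fibro-adipogenic markers and 6 of 7 tested glial markers were also lower in females, none called by edgeR (3 and 0 with an unadjusted p under 0.05), with overlapping sums. Of the 10 committed muscle markers 6 were lower in females, 5 had an unadjusted p under 0.05 and Myh3 was called (log2 fold change -5.35, edgeR adjusted p = 0.0279), and 9 of the 10 muscle stem cell markers were higher in females, 2 with an unadjusted p under 0.05 and none called by edgeR. Of the tested immune, mural and tendon markers 3 of 6, 5 of 8 and 3 of 5 had higher values in females, with 3, 2 and 1 under an unadjusted p of 0.05 and none called by edgeR. The part of these cells or of commitment in the Lrp6 value was not tested.

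Rspo1 was at 34.6, 33.4, 12.6 and 27.0 CPM in females and at 16.8, 5.92, 11.9 and 13.6 CPM in males, given as Myf5High 1 and 2 and then Myf5Low 1 and 2. The sexes overlapped through female Myf5Low replicate 1. The female excess was 1.10 on the log2 scale (SE 0.360, adjusted p = 0.154 by edgeR), and without male Myf5High replicate 1 it was 1.58 and called (adjusted p = 0.0234). Axin1, in the same order, was at 88.3, 71.8, 56.3 and 60.9 CPM in females and at 58.1, 28.6, 38.3 and 48.7 CPM in males. Only the highest male library reached into the female range, the log2 difference was 0.65 (SE 0.243, adjusted p = 0.22 by edgeR), and without male Myf5High replicate 1 it was 0.96 and called (adjusted p = 0.0284). Without that library 501 of all genes were called between the sexes, against 194 with it, and neither member call is counted here. Its summed fibro-adipogenic markers were at 1580 CPM, against 466 to 927 CPM in the others.

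At the low end, Fzd1 was at 1.29, 0, 0.824 and 0.470 CPM in females and at 2.40, 4.93, 2.46 and 5.02 CPM in males, in the same order, without overlap (log2 fold change -2.49, SE 1.17, edgeR adjusted p = 0.348). Without female Myf5High replicate 1, which left the library at 0 alone in its group, the value was -4.68. Axin2 ranged from 0 to 2.59 CPM in females and from 2.63 to 4.32 CPM in males, also without overlap (log2 fold change -2.06, SE 1.11, edgeR adjusted p = 0.431), and its value was -3.66 without female Myf5Low replicate 1. Both rest on at most 21 reads in a library and passed the filter on low counts only through male libraries. Ror2 had a log2 fold change of -3.70 (edgeR adjusted p = 0.166), from 0 to 2.80 CPM in females and from 0.478 to 15.6 CPM in males, and Wnt4 one of 0.98 (SE 0.361, edgeR adjusted p = 0.214), from means of 24.8 ± 18.6 and 12.6 ± 9.32 CPM (SD, n = 4), which was 0.55 without female Myf5Low replicate 2.

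**Figure D4:**
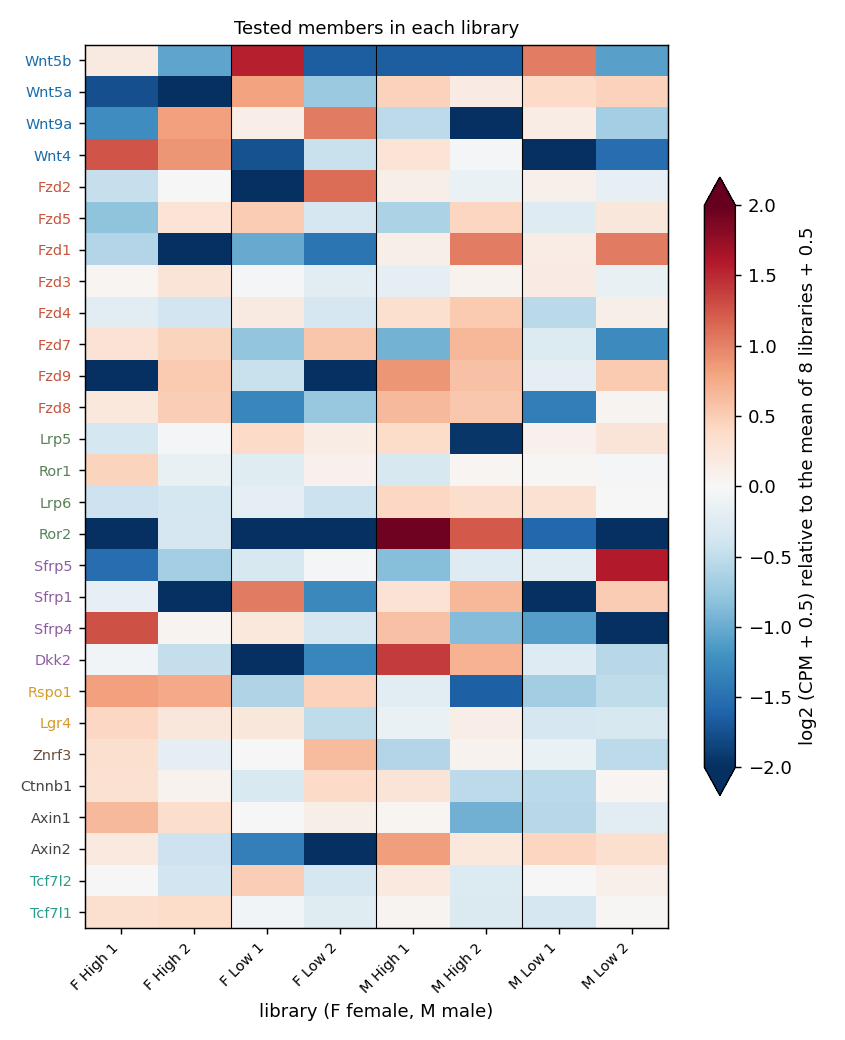
Level of each tested member in the 8 libraries, as the log2 ratio to the member's mean over the libraries with a small constant added to both (colours saturate beyond the scale), by role. Wnt4 is below its mean in all 4 Myf5Low libraries and, slightly, in male Myf5High replicate 2 (18.1 CPM, against a mean of 18.7), and Ror2 is highest in the 2 male Myf5High libraries.

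A list of 86 further genes of the pathway, from Wnt secretion to target genes, gives the surroundings of these members, and 66 of them were tested. Between the fractions 1 of the 66 was called, against 1.2% of all genes, with a median log2 fold change of 0.05. It was Draxin, a secreted axon guidance protein that antagonises Wnt signalling. Draxin was at 99.6, 135, 105 and 174 CPM in Myf5High and at 4.12, 2.59, 38.8 and 32.3 CPM in Myf5Low, female pools before male pools, so the fractions did not overlap. The log2 difference was 3.55 over both sexes (adjusted p = 2.97e-07 by edgeR) and 5.13 in females (adjusted p = 1.04e-06). In males it was 1.97 (edgeR adjusted p = 0.0157). The call was lost when the 4 male libraries were fitted alone, though the value was 1.98 (edgeR adjusted p = 0.071). It was also lost without male Myf5High replicate 2, male Myf5Low replicate 1 or male Myf5Low replicate 2, where the values were 1.56, 2.12 and 1.84. The female minus the male fold change of Draxin was 3.16 and not called (edgeR adjusted p = 0.0908). Of the other fits with all 8 libraries, the value was called without the filter (edgeR adjusted p = 4.65e-06) and by DESeq2 (adjusted p = 0.000396). Without male Myf5High replicate 2, which left 1 library in that group, this value was 3.57. Between the sexes 2 of the 66 were called by the edgeR fit of 8 libraries, against 1.65% of all genes. Draxin had a female minus male log2 fold change of -1.83 (edgeR adjusted p = 0.000674), but the sexes overlapped in Myf5High, and the call was lost in the additive model (-1.49, adjusted p = 0.0861) and when the fractions of each pool were summed (-0.50, adjusted p = 0.334). Tle3, a co-repressor that binds TCF factors, was higher in females (0.78, edgeR adjusted p = 0.0258) and was called in pool sums as well (0.79, adjusted p = 0.0328). Its call was lost without any 1 of the 4 female libraries, without male Myf5Low replicate 1 and without male Myf5Low replicate 2. In those fits its log2 fold change ran from 0.72, without female Myf5High replicate 1, to 0.82, without male Myf5Low replicate 2. Tle3 stood between 203 and 297 CPM in the female libraries and between 131 and 147 CPM in the male ones.

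The genes that make Wnt ligands competent for release were detected in every library. Porcn, whose enzyme attaches the lipid, was between 21.4 and 32.9 CPM in Myf5High and between 14.1 and 20.4 CPM in Myf5Low, without overlap and not called (log2 fold change 0.54, edgeR adjusted p = 0.634). Wls, which carries Wnts to the surface, was between 33.6 and 61.8 CPM in the 8 libraries. None of the 17 tested genes of the destruction complex and its transducers was called between the fractions by edgeR or DESeq2, and 2 had an unadjusted p under 0.05. Over all tested genes, edgeR called 1.2%, and 9.36% had an unadjusted p under 0.05. For the 9 tested target genes outside the naming rule, the counts called and under that p were 0 and 1. Among them Ccnd1, a cyclin gene often used as a target and named here after its values were seen, was at 385 and 582 CPM in female Myf5High against 237 and 311 CPM in female Myf5Low, and at 384 and 312 CPM against 589 and 436 CPM in males. The fractions differed in opposite directions in the sexes, each from 2 libraries against 2, and edgeR called none of these values. It gave a log2 fold change of 0.82 in females (unadjusted p = 0.00813, adjusted p = 0.363) and of -0.56 in males (adjusted p = 0.761). Their difference was 1.38 (edgeR unadjusted p = 0.00231, adjusted p = 0.917).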

How the data were processed

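Gene counts of polyA RNA, sequenced as single reads, were deposited by the authors as 1 table of whole-number counts for 8 libraries. The submitters' processing notes name HTSeq and GRCm38. The aligner, the annotation release and the use of strand are not given in the sources used here. Between 42.2% and 45.5% of the reads in the table fell in rows that name no gene, and these were left out. Counts were tested with edgeR 4.0.16 in R 4.3.3 (TMM scaling, quasi-likelihood test, 4 group means over all 8 libraries). The filter, filterByExpr, asked for 10 counts at the median library size in at least 2 libraries, and for 15 counts in total. P-values were adjusted by Benjamini-Hochberg over the 11730 tested genes and called under 0.05. Alternatives were RLE scaling, no filter or a stricter filter, the pool as block, an additive model, pool sums, Gm42418 left out, DESeq2 1.42.0 and each library left out. A fit with a library left out kept 1 library in that group, so its spread came from the other groups alone.

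Pool labels pair the fractions by sex and number. They were read as the same mice, which the labels do not state outright, and same-numbered libraries deviated with correlations of 0.0275 in females and -0.000273 in males. Replicates are pools of 4 mice. The rule for the members reads symbols only, but the gene group and the lists were chosen with earlier results of these data known. Values of each library are given for Wnt9a, for called members, for those with an unadjusted p under 0.05 in the 2 main comparisons and for the 2 highest per role. Dkk2, Wnt5a, Wnt5b and Axin2 were added after their values were seen. On simulated data for Myf5High against Myf5Low (11730 genes, 200 changed at a log2 fold change of 2), edgeR recovered 149 with 6 false calls.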

Additional observations from a re-analysis of the deposited data

Results flagged for a closer look

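Single libraries stood far from the other 3 of their fraction or sex for 4 members. In 112 such comparisons 5 passed Dixon's test, and chance alone flags about 1 in 20. Rspo1 was at 27.0 CPM in female Myf5Low replicate 2, where the other Myf5Low libraries lay between 11.9 and 13.6 CPM. Ror2 was at 2.80 CPM in female Myf5High replicate 2, where the other female libraries lay between 0 and 0.323 CPM. Wnt5b was at 2.69 CPM in male Myf5Low replicate 1, where the other male libraries lay between 0 and 0.239 CPM. Sfrp5 was at 17.9 CPM in male Myf5Low replicate 2, against 4.40 to 5.41 CPM in the other Myf5Low libraries and 2.88 to 4.70 CPM in the other male libraries.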

How the results depend on the processing

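Wnt4 was higher in Myf5High under all 15 alternatives, with log2 fold changes from 1.83 to 2.52, and was called in 14. With the pool as a replicate block its log2 fold change was 2.16 (edgeR adjusted p = 0.0062), 1 member was called as before, and the block changed no other call of a member (among marker genes, over both sexes, it added Tek and Myod1 and lost Calcr). Members called between the fractions were 2, Wnt4 and Ror2, without the filter, in the additive model and by DESeq2 (all genes called: 291, 149 and 234, against 141), and 0 to 1 when each library was left out, 0 without replicate 1 of female Myf5High (67 of all genes). Between the sexes DESeq2 called 1 member, Lrp6 (371 of all genes, against 194), and leaving out a library gave 0 to 2, with 2 (Axin1 and Rspo1) without male Myf5High replicate 1, where 501 of all genes were called. Within females 1 member, Wnt4, was called without the filter, in a fit of only the libraries compared and by DESeq2 (all genes: 167, 120 and 107, against 39), and within males 1, Wnt4, without the filter (111, against 20). Of the pathway list, 4 genes were called between the sexes without the filter and by DESeq2 (all genes: 477 and 371, against 194), 1 (Tle3, with Draxin lost) in pool sums (212) and 1 to 6 with a library left out (6 without male Myf5High replicate 1, with the same 501 genes in all), 3 at the stricter filter (188), and in the additive model (213) 2, Tle3 and Daam1 in place of Draxin. In females 2 were called without the filter. In males 0 were called, with Draxin lost, in a fit of only the libraries compared (7 of all genes), and 0 to 1 with a library left out, 0 without male Myf5High replicate 2 or either male Myf5Low library. For the interaction, among fits with all 8 libraries, 1 gene, Draxin, was called without the filter and by DESeq2 (14 and 2 of all genes, against 0). The cause of these changes was not tested. With 3140361 to 4238427 gene counts, 0 reads of a member in a library allow a level of 0.672 to 0.986 CPM, a limit that covers counting error only.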
